A study of Mus musculus with 6 samples.

Results

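The major urinary protein (Mup) genes were compared between livers of exercised and of sedentary mice. The 8 genes described are Mup3, Mup7, Mup9, Mup15, Mup16, Mup17, Mup20 and Mup21, taken by symbol from the 16123 genes of the deposited table, which holds 22 Mup gene rows in all and 2 rows named as Mup pseudogenes. They were chosen from the exercise against sedentary values of these same libraries, so their levels and differences are given as a description and carry no test. The exercise group is described as 3 healthy adult mice that ran for 6 weeks, with a labelled running distance of 22 km per mouse and livers taken 24 h after training ended. The control group is described as 3 sedentary mice without treadmill training, and each group has 3 libraries. Perfusion with buffered saline preceded dissection, and no deletion, transgene or drug is named for either group. The labels used here name neither strain nor sex, nor an age beyond adult, and in mice Mup expression is known to differ between the sexes. The study asked how moderate exercise alters liver metabolism.

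Major urinary proteins are small secreted lipocalins, barrel-shaped carriers that the hepatocyte releases into blood in large amounts and that the kidney passes into urine. There they bind volatile pheromones and act as scent signals between mice. The Mup20 product, known as darcin, is itself a male sex pheromone. Hepatic Mup transcription depends on pulses of growth hormone acting through the receptor, JAK2 and STAT5B, and androgens, thyroid hormone and glucocorticoids also act on it. The genes lie as a tandem cluster of near-identical copies and pseudogenes on chromosome 4.

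The 22 Mup gene rows lay between 59956804 and 62150841 of chromosome 4 in GRCm38.p6 (RefSeq coordinates). All 8 genes are protein-coding and on the minus strand. In order of position they were Mup7 (gene ID 100041658, 60066469 to 60070475), Mup9 (100038948, 60418046 to 60422085), Mup15 (100039150, 61435787 to 61439833), Mup16 (100039177, 61515592 to 61519627), Mup17 (100039206, 61591929 to 61595865), Mup20 (381530, 62011337 to 62054143), Mup3 (17842, 62083476 to 62087317) and Mup21 (381531, 62147832 to 62150841). Mup20, Mup3 and Mup21 are thus the last Mup genes at the high-coordinate end. Mup16 lies inside the span annotated for the row named Mup-ps12.

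The start regions of the genes show how alike the copies are and where Mup3 and Mup21 depart from the rest. RefSeq windows of GRCm38.p6 from 250 bases before to 50 bases after the annotated start were found for 14 of the 22 Mup genes, 6 of them among the 8 described (not Mup16 and Mup20). A pair of genes that were lower in exercise livers (Mup17, chr4:61595783-61596082, and Mup9, chr4:60421903-60422202) is printed with the pair that was higher (Mup3, chr4:62087268-62087567, and Mup21, chr4:62150792-62151091), all from the minus strand. Capitals mark the letters TATATAA, which position the start of transcription, and ATTGAT on either strand, the core that Onecut factors bind.
Mup17: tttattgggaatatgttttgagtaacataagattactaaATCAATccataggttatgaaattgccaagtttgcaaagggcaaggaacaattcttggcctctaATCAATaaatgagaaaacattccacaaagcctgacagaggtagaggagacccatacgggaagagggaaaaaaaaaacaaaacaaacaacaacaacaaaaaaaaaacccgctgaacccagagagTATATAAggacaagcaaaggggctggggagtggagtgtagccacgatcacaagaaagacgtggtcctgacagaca
Mup9: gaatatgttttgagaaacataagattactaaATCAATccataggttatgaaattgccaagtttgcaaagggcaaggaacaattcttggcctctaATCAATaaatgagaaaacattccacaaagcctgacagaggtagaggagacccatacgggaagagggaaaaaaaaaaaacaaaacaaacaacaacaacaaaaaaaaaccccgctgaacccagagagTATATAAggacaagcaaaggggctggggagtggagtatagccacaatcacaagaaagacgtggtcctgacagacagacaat
Mup3: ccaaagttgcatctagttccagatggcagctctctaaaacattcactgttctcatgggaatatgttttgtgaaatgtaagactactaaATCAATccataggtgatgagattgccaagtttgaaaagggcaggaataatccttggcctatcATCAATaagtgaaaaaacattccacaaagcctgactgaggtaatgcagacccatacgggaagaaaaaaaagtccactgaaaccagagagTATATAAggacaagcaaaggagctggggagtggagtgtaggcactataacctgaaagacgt
Mup21: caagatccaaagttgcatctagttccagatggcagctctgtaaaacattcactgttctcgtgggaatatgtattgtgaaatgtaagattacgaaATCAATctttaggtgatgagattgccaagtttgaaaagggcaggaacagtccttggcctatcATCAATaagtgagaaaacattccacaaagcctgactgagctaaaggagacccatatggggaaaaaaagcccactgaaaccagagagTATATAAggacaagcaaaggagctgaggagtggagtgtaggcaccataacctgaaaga
The windows of Mup17 and Mup15 matched at 100% of 297 aligned bases (gaps left out), and those of Mup17 and Mup9 at 98.6% of 292. Mup3 and Mup21 matched each other at 94.2% of 294 bases, while Mup17 matched Mup3 at only 87.6% of 251 and Mup21 at 86.5% of 245.

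Both strands of each window were searched for 5 sets of letters, and in the Mup windows no match of one overlapped a match of another. TATATAA stood in 13 of the 14 Mup windows, against 3.24% of all 32851 RefSeq windows of the same length. The window without it was that of Mup7, whose ATTGAT matches lie nearer to the end of its window than in the other genes. It ends in gaagagggaaa, letters that stand before TATATAA in Mup9. The window of Mup7 therefore cannot show whether TATATAA follows. ATTGAT was present at least 2 times in 14 of 14 Mup windows, against 0.694% of all windows. TTCNNNGAA, the pattern that STAT5 binds, was in none of the 14, against 8.30% of all windows, and TTGCNNAA, a pattern of C/EBP factors, was also in none, against 10.8%. AGAACA, one arm of the element that the glucocorticoid receptor binds, was in 2 of the 14 windows, against 19.0% of all windows. These were the windows of Mup3 and Mup21, which read tgttct before their first ATTGAT match. The windows of Mup9, Mup15 and Mup17 begin too near their first ATTGAT match to hold that place in full. They therefore cannot show whether AGAACA is there. The window of Mup7 does reach the place and reads tgtttt. Among the other lower Mup genes, the first ATTGAT match lies at base 70 in Mup6, 63 in Mup11, 86 in Mup14 and 44 in Mup18. It lies at 42 in Mup15. If spaced as in Mup7, the windows of Mup6, Mup11, Mup14 and Mup18 reach the place too, and none holds AGAACA. Whether AGAACA divides the lower genes from the higher ones was not tested. The longest run of A was 12 bases in Mup9, 11 in Mup15 and 10 in Mup17, against 8 in Mup3 and 7 in Mup21. In Mup7 the longest run, 4 bases, lies at another place, and its window ends where the run of Mup9 begins. The window of Mup7 therefore cannot show the length of that run. Whether its length divides the lower genes from the higher ones was not tested. The Mup windows are near copies, those of the described genes matching each other at 83.8% to 100% of aligned bases. Counts over them are therefore not independent observations to weigh against the share of all windows. These letters are a description of the windows alone.

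The sequence of the transcripts bears on how the reads could be assigned. Among the longest GENCODE protein-coding transcripts, Mup7, Mup9, Mup15, Mup16 and Mup17 matched each other at 98.5% to 99.2% of aligned bases. Mup3, Mup20 and Mup21 matched those 5 genes at 86.1% to 91.1%, and each other at 89.4% to 96.1%. Of all 150-base windows of a transcript, the length of 1 read, 100% were found in no other Mup transcript for Mup3 and Mup21 and 68.9% for Mup20. That share was 59.6% for Mup17, 27.6% for Mup16, 27.1% for Mup7, 21.7% for Mup9 and 9.28% for Mup15. Windows that also occurred in 1 of the 14 other Mup genes made up 0% of Mup3, Mup20 and Mup21, 25.3% of Mup17, 58.7% of Mup7, 70.7% of Mup9, 72.4% of Mup16 and 82.2% of Mup15. The deposited read counts were not whole numbers in any of the 6 libraries for each of the 8 genes, including Mup3 and Mup21. How the authors divided shared reads is not stated in the labels, so the single values of all 8 genes are uncertain. Unique windows were counted among GENCODE Mup transcripts only, which does not exempt Mup3 and Mup21. The windows of Mup20 that were not unique, 31.1%, occurred in the pseudogene Mup-ps19 and in no other Mup gene of the table.

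Mup genes took a large part of the liver libraries. Library totals were 17941303 to 18067298 counts in exercise and 18164094 to 18371949 in sedentary livers, and libraries of 1 group differed little, with a common biological coefficient of variation of 1.84%. No label says how the RNA samples relate to the animals beyond the design text, so the p-values of the genes outside the family measure only the spread between these libraries. All 22 Mup gene rows summed to 8.05%, 8.44% and 8.23% of the counts in the 3 exercise libraries, against 9.76%, 9.91% and 9.79% in the 3 sedentary libraries. The 8 genes summed to 622719, 639542 and 634434 counts in exercise libraries, against 699039, 712646 and 705790 in sedentary libraries, and the groups did not overlap. With TMM scaling, edgeR's correction for the makeup of each library, the log2 fold change (exercise minus sedentary) of this sum was −0.22 (SE 0.01). It was −0.06 without Mup7, the gene with the most counts, and −0.33 over all 22 rows, a sum that does not depend on how reads were divided among those rows. In bulk tissue, fewer cells of a type and less RNA per cell cannot be told apart.

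**Figure D1:**
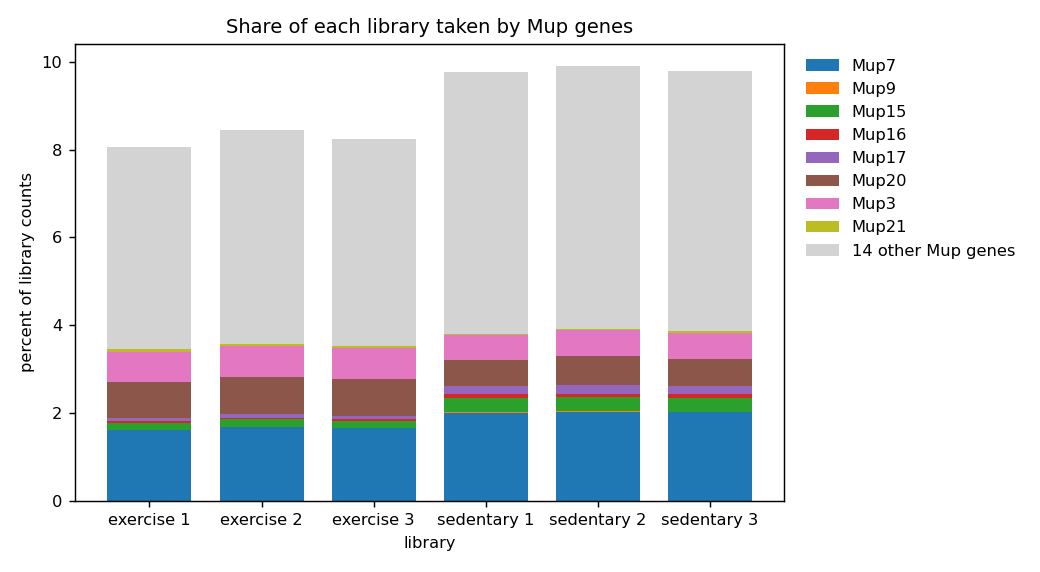
Percent of all counts in each library (vertical axis) taken by each of the 8 Mup genes and by the 14 other Mup genes together (grey), exercise libraries left of sedentary ones. Bars of exercise libraries end at 8.05% to 8.44% and those of sedentary libraries at 9.76% to 9.91%, while the bands of Mup20 and Mup3 are wider in exercise libraries.

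The genes differed in both directions. Mup17, Mup9, Mup15, Mup16 and Mup7 were lower in exercise livers, and Mup20, Mup3 and Mup21 were higher. The 8 genes all had an adjusted p under 0.05 in the fit across all genes, 5 lower and 3 higher, where 38.1% of the 10266 tested genes did (19.0% lower and 19.1% higher). The FPKM of exercise and sedentary libraries did not overlap for any of the 8, where 51.0% of tested genes had groups apart. Since the genes were picked on this contrast, nothing is read from these counts. The median log2 fold change was −0.70 over the 8 genes and −0.00062 over all tested genes. Levels below are FPKM, the authors' read density per kilobase of transcript, and log2 fold changes come from TMM-scaled counts.

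Mup17 showed the widest difference of the 8. It stood at 1231, 1409 and 1335 FPKM in exercise libraries, against 3243, 3266 and 3242 FPKM in sedentary libraries. Every exercise library was far below every sedentary one, and the log2 fold change was −1.36 (SE 0.03), or 2.57-fold lower. Mup9, the least abundant of the 8, had 107, 106 and 80.8 FPKM in exercise libraries, against 217, 195 and 221 FPKM in sedentary libraries. Exercise replicate 3 was the lowest, the groups did not overlap, and the log2 fold change was −1.17 (SE 0.05).

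Mup15 and Mup16 both differed by close to the same factor. Mup15 had 2761, 2965 and 2923 FPKM in exercise libraries, against 5677, 5717 and 5651 FPKM in sedentary libraries, a log2 fold change of −1.05 (SE 0.02). Mup16 had 668, 679 and 675 FPKM in exercise libraries, against 1339, 1305 and 1323 FPKM in sedentary libraries, a log2 fold change of −1.03 (SE 0.02). For both genes all exercise libraries lay far below all sedentary ones, and the spread within a group was small beside the gap.

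Mup7 was the most abundant of the 8 in all 6 libraries and held rank 3 by FPKM among all genes in each. It had 23516, 24646 and 23935 FPKM in exercise libraries, against 29615, 29595 and 29755 FPKM in sedentary libraries. The difference was smaller than in the other lower genes, with a log2 fold change of −0.37 (SE 0.02), or 1.29-fold lower. The other 7 genes together gave −0.06. This is a net value, in which lower Mup9, Mup15, Mup16 and Mup17 were offset by higher Mup20, Mup3 and Mup21. How much of the lower sum belongs to Mup7 is uncertain, since 58.7% of its windows also occur in the other Mup genes.

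Mup20, the darcin gene, differed most among the 3 higher genes. It had 14474, 14664 and 14236 FPKM in exercise libraries, against 10396, 11382 and 11007 FPKM in sedentary libraries. All exercise libraries were above all sedentary ones, the log2 fold change was 0.34 (SE 0.02), or 1.26-fold higher, and its rank among all genes was 7 to 8 in exercise and 10 to 12 in sedentary libraries. Mup3 had 11380, 11563 and 11507 FPKM in exercise libraries, against 9370, 9767 and 9709 FPKM in sedentary libraries, a log2 fold change of 0.19 (SE 0.02). Mup21 had 1112, 1121 and 1082 FPKM in exercise libraries, against 885, 989 and 963 FPKM in sedentary libraries, a log2 fold change of 0.16 (SE 0.03). For Mup3 and Mup21 the gap was narrow but the groups did not overlap.

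**Figure D2:**
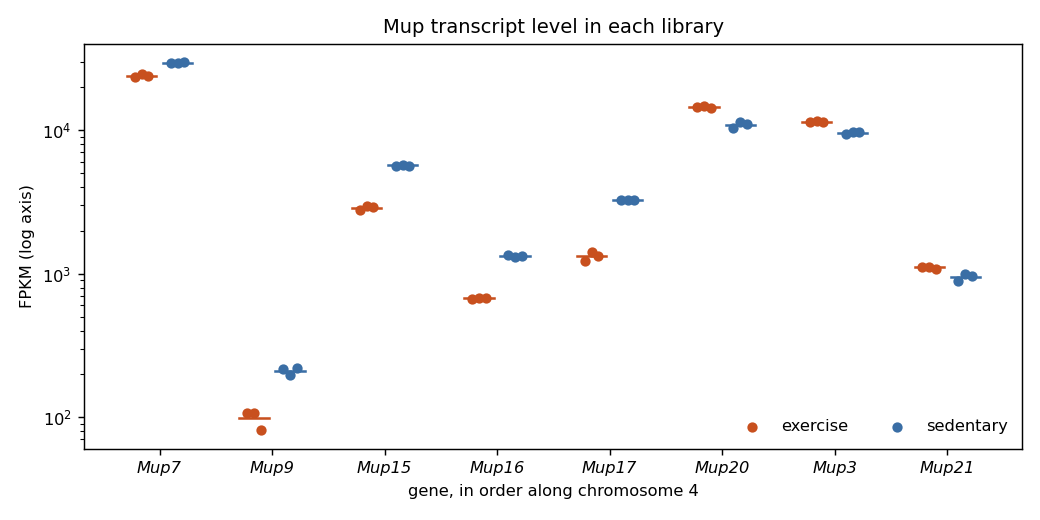
FPKM on a log axis (vertical) of the 8 Mup genes, 1 point per library with the group mean as a line, exercise (orange, left) beside sedentary (blue, right). Mup7 lies highest at 23516 to 24646 FPKM in exercise and 29595 to 29755 in sedentary libraries, and the points of Mup20, Mup3 and Mup21 are higher in exercise livers while those of the other 5 genes are lower.

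The order of levels changed at 1 place. By mean FPKM it ran Mup7, Mup20, Mup3, Mup15 and Mup17 in both groups, followed by Mup21 and Mup16 in exercise livers, against Mup16 and Mup21 in sedentary livers, with Mup9 last in both. Mup21 averaged 1105 ± 20.2 and Mup16 674 ± 5.93 FPKM in exercise livers, against 946 ± 53.9 and 1322 ± 16.9 FPKM in sedentary livers (SD, n = 3 each). Neighbours in either order did not overlap in their 3 libraries. The spread within a group was largest for Mup9, at a coefficient of variation of 15.4% in exercise and 6.53% in sedentary libraries. It was 0.818% to 6.76% for the other genes in exercise and 0.294% to 5.70% in sedentary libraries.

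The make-up of the summed counts shifted toward Mup20 and Mup3. Mup20 made up 24.2%, 23.7% and 23.6% of the counts of the 8 genes in exercise libraries, against 15.6%, 16.8% and 16.3% in sedentary libraries. Mup3 made up 19.8% ± 0.222 in exercise and 14.9% ± 0.166 in sedentary libraries (SD, n = 3 each). Mup7 made up 46.8% ± 0.288 in exercise and 52.2% ± 0.604 in sedentary libraries. Mup15 and Mup17 made up less in exercise libraries as well, with Mup15 at 4.77% ± 0.118 in exercise and 8.48% ± 0.0949 in sedentary libraries. Mup17 made up 2.18% ± 0.112 in exercise and 4.83% ± 0.0451 in sedentary libraries.

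Sums were also taken over groups formed after the values were seen, whose direction the choice of genes fixes, so they add only sizes. Mup3, Mup20 and Mup21, the higher genes, summed to 1.58% ± 0.0102 of library counts in exercise and 1.246% ± 0.0487 in sedentary livers (SD, n = 3 each). The 19 other Mup gene rows summed to 6.66% ± 0.183 in exercise and 8.57% ± 0.0386 in sedentary livers. On TMM-scaled counts the log2 ratio was 0.26 for the 3 genes and −0.44 for the 19 rows, and on the TPM scale 0.37 and −0.35. The directions of the 8 genes were the same in each of the 16 other settings in which single genes were fitted, with Mup17 between −1.41 and −1.26, Mup20 between 0.30 and 0.44, Mup3 between 0.17 and 0.29 and Mup21 between 0.11 and 0.26.

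**Figure D3:**
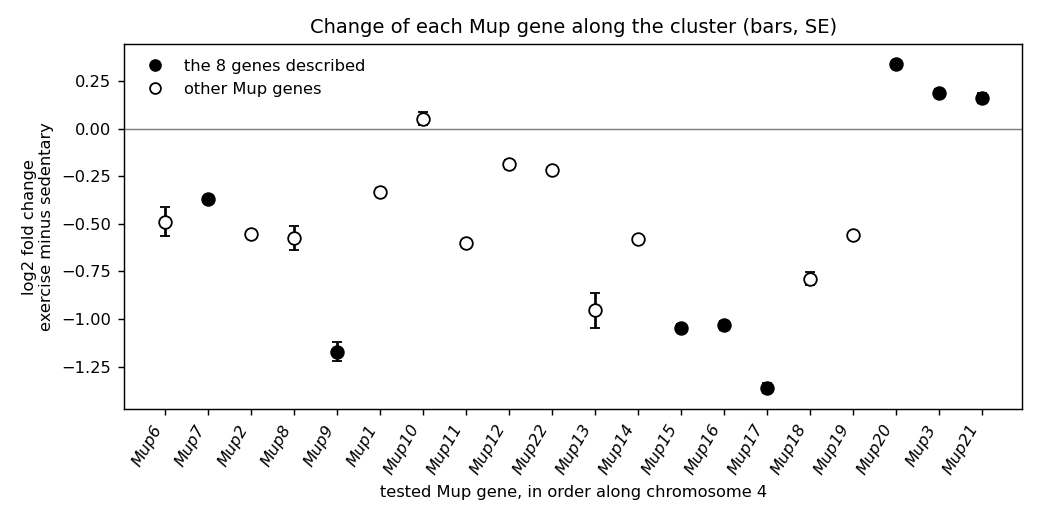
Log2 fold change (vertical axis, exercise minus sedentary, TMM-scaled counts, bars SE) of the 20 tested Mup genes in order along chromosome 4, the 8 genes described filled and the 12 others open. The 3 genes at the high-coordinate end lie between 0.16 and 0.34, and Mup17 lies lowest at −1.36.

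The other Mup genes mostly lay on the lower side. Of the 14 other Mup gene rows 12 were tested, and 11 were lower at an adjusted p under 0.05, against 19.0% of all tested genes. All of these rows but Mup6 share 150-base windows with other Mup transcripts, so as a set these calls are no independent result. The log2 fold changes of the 12 tested rows ran from −0.95 in Mup13 to 0.05 in Mup10, with a median of −0.56. Mup22, the most abundant of all Mup rows, stood at 29832, 31455 and 29972 FPKM in exercise libraries, against 33762, 33598 and 33710 FPKM in sedentary libraries, a log2 fold change of −0.22. No 150-base window of its transcript was unique. Mup6 is distinct in all of its windows, as Mup3 and Mup21 are, and it was lower, at 29.7, 32.3 and 28.8 FPKM in exercise libraries, against 37.8, 41.5 and 43.0 FPKM in sedentary libraries (log2 fold change −0.49, SE 0.08).

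Other values of the lower rows spread widely. Mup18 had a log2 fold change of −0.79, Mup11 −0.60, Mup14 −0.58, Mup8 −0.57, Mup19 −0.56, Mup2 −0.55, Mup1 −0.33 and Mup12 −0.19. Mup10, at 0.05 (SE 0.03), did not pass (edgeR adjusted p = 0.207), and it was −0.02 without exercise replicate 3. Mup4 and Mup5, known from nasal and salivary glands, were below the filter, with Mup4 at 2 to 4 counts in exercise and 1.02 to 3 counts in sedentary libraries, and Mup5 at 1.99 to 8.03 counts in exercise and 2.25 to 3.87 counts in sedentary libraries. The row Mup-ps16 stood at 33.0, 29.1 and 33.6 FPKM in exercise and 32.5, 31.0 and 32.4 FPKM in sedentary libraries (edgeR adjusted p = 0.135). The row Mup-ps12 stood at 10.3, 9.32 and 11.7 FPKM in exercise and 9.09, 11.2 and 11.7 FPKM in sedentary libraries (edgeR adjusted p = 0.431). In both pseudogene rows the groups overlapped.

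**Figure D4:**
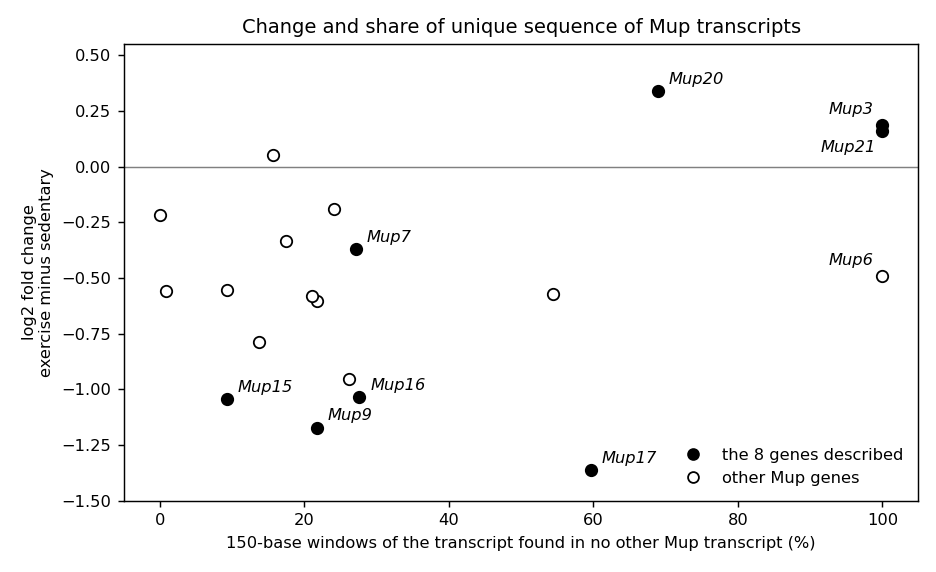
Percent of the 150-base windows of each Mup transcript that occur in no other Mup transcript (horizontal axis) against its log2 fold change, exercise minus sedentary (vertical axis), for the 20 tested Mup genes. Mup3, Mup21 and Mup6 lie at 100%, with Mup3 and Mup21 above 0 and Mup6 at −0.49, and Mup17 lies at 59.6% and −1.36.

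Genes on either side of the cluster did not pass the test. The 3 nearest tested genes on the low-coordinate side, E130308A19Rik, Inip and Snx30, had log2 fold changes of −0.15, −0.01 and −0.10 (edgeR adjusted p = 0.363, 0.957 and 0.319). The 3 nearest on the high-coordinate side were Slc31a2 and the copper transporter gene Slc31a1 with Fkbp15 between them. Their log2 fold changes were 0.16, −0.01 and −0.0025 in the order Slc31a2, Slc31a1 and Fkbp15 (edgeR adjusted p = 0.254, 0.747 and 0.976).

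Genes of growth hormone signalling, the pathway that drives Mup transcription, included more that fell than rose. Of 21 tested, 12 were lower, 3 were higher and 6 missed the threshold, and the median log2 fold change was −0.15, against 19.0% lower, 19.1% higher and a median of −0.00062 over all tested genes. Cish, a STAT5 target that inhibits cytokine signalling, fell to 1.05 FPKM in exercise livers, against 8.11 FPKM in sedentary livers (log2 fold change −3.03, SE 0.10, edgeR adjusted p = 7.09e-30). Onecut1, the factor whose core letters are marked above, fell to 1.63 FPKM in exercise livers, against 10.3 FPKM in sedentary livers (log2 fold change −2.73, SE 0.11, adjusted p = 9.79e-26). Bcl6, a repressor at STAT5 sites, rose (0.93, SE 0.04, adjusted p = 3.14e-23), and so did Igfbp2, which binds insulin-like growth factors (0.47, adjusted p = 9.82e-22).

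Transcription factors and hormone receptors linked to Mup or sex-biased liver expression went both ways, 9 of 22 lower, 7 higher and 6 not passing, with a median of −0.01. Hnf4a, a hepatocyte factor, rose to 200 FPKM in exercise livers, against 157 FPKM in sedentary livers (log2 fold change 0.27, SE 0.02, edgeR adjusted p = 2.55e-15). The receptor gene Nr1i3 rose (0.63, adjusted p = 2.15e-23), as did the glucocorticoid-induced Tsc22d3 (0.30, adjusted p = 1.16e-09). The estrogen receptor gene Esr1 fell (−0.96, SE 0.09, adjusted p = 1.99e-12), as did Xbp1, a regulator of secretory capacity (−0.35, adjusted p = 7.52e-15).

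Male-biased genes outside the family also went both ways, with more lower than higher. Of 26 tested 16 fell, 8 rose and 2 did not pass (median −0.15). Moxd1 fell most of those named (−2.99, SE 0.10, edgeR adjusted p = 2.78e-30), followed by the complement gene C4a (−1.30, SE 0.04, adjusted p = 1.81e-29). Selenbp2 fell to 528 FPKM in exercise livers, against 983 FPKM in sedentary livers (−0.97, adjusted p = 4.16e-37), and the antitrypsin gene Serpina1e fell (−0.64, adjusted p = 3.13e-34). Cyp4a12b, a fatty acid hydroxylase, rose to 124 FPKM in exercise livers, against 63.5 FPKM in sedentary livers (0.89, SE 0.03, adjusted p = 2.47e-29). Of 15 tested genes listed as female-biased 5 fell, 5 rose and 5 did not pass (median 0.10). Among them Cyp2a5 (−0.33, edgeR adjusted p = 7.72e-18) and Cyp2b10 (−1.12, adjusted p = 3.1e-05) fell. Cyp2c40 (0.49, adjusted p = 1.63e-06), Acot3 (0.71, adjusted p = 0.000376) and Sult2a8 (0.16, adjusted p = 1.86e-08) rose. The sex bias of the listed genes, Sult2a8 among them, was not tested here, since the labels name no sex.

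Other carrier and secreted protein genes were also counted. Of 15 tested lipocalin and carrier genes 8 fell, 3 rose and 4 did not pass (median −0.08). The lipocalin genes that fell included Orm1 (log2 fold change −1.0, edgeR adjusted p = 4.74e-38), Orm2 (−4.11, adjusted p = 8.15e-49), Orm3 (−2.46, adjusted p = 4.94e-17), Lcn2 (−5.79, adjusted p = 4e-50) and Ambp (−0.30, adjusted p = 5.19e-18), which are acute phase proteins or carriers of plasma. Of 39 abundant secreted liver proteins 27 fell, 7 rose and 5 did not pass (median −0.12), with Hpx (−1.04), Hp (−0.88), Itih4 (−0.72) and C3 (−0.59) having the smallest p (adjusted p = 3.86e-42, 4.05e-38, 1.32e-34 and 2.36e-32 in that order). The lists share some genes. Over all 131 tested genes of these lists 31 rose and 73 fell, while 46 rose and 56 fell without TMM and 46 rose and 46 fell by limma on TPM, and over all 10266 tested genes 1961 rose and 1952 fell, while 3536 rose and 1203 fell without TMM.

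The genes whose profile over the 6 libraries was nearest to that of the summed 8 genes, by Euclidean distance of centred log2(FPKM + 1) values, were Kng1 (distance 0.0364), Crebrf (0.0387), Pyurf (0.0393), Slc9a3r1 (0.0406) and Keg1 (0.0453). Kng1, which encodes the plasma protein kininogen, averaged 1391 FPKM in exercise and 1540 FPKM in sedentary livers. The 6 points share 2 groups, and the distances carry no p.

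Markers of liver cell types moved as well. Sums are given in FPKM, while the counts of higher and lower markers come from the TMM-scaled fit. In that fit 19.1% of all tested genes were higher and 19.0% lower. Hepatocyte markers summed to 77050 to 77607 FPKM in exercise and 74742 to 76114 FPKM in sedentary libraries, with 7 of 10 higher and 2 lower. By limma on log2(FPKM + 1) the median log2 fold change of all tested genes was 0.063. The small gap of the hepatocyte sum is therefore not read as a difference. Markers of Kupffer cells summed to 174 to 178 FPKM in exercise and 206 to 209 FPKM in sedentary libraries (6 of 8 lower), and those of red blood cells to 335 to 352 FPKM in exercise and 381 to 393 FPKM in sedentary libraries (4 of 5 lower). Cholangiocyte markers summed to 32.7 to 34.6 FPKM in exercise and 63.0 to 65.6 FPKM in sedentary libraries (1 of 2 tested lower), and pancreatic acinar markers to 8.17 to 8.68 FPKM in exercise and 17.0 to 17.9 FPKM in sedentary libraries (2 of 2 tested lower). Stellate markers summed to 114 to 115 FPKM in exercise and 89.4 to 91.4 FPKM in sedentary libraries (4 of 6 higher), and endothelial markers to 74.4 to 81.9 FPKM in exercise and 68.2 to 70.2 FPKM in sedentary libraries (2 of 6 higher). Neutrophil markers summed to 7.95 to 11.8 FPKM in exercise and 9.81 to 16.4 FPKM in sedentary libraries, and lymphocyte markers to 3.30 to 4.30 FPKM in exercise and 3.60 to 4.15 FPKM in sedentary libraries, and none of those tested passed. Adipocyte markers summed to 0.64 to 1.21 FPKM in exercise and 0.78 to 1.14 FPKM in sedentary libraries, and skeletal muscle markers to 0 to 0.05 FPKM in exercise and 0.09 to 0.42 FPKM in sedentary libraries, and none of these was high enough to be tested. No marker in the table was at 0 in all 6 libraries. The part of these cell types in the Mup values was not tested.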

How the data were processed

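RNA from liver was sequenced in 3 exercise and 3 sedentary libraries. Per the labels' protocols, RNA was extracted with TRIzol, read in pairs on a DNBseq instrument, and reads of low quality, with many undetermined bases or of short length were removed. Cutadapt, featureCounts and MultiQC are named with build GRCm38.p6 in the submitters' processing notes. For aligner, annotation, versions and strand setting, nothing is given in the sources used here. The deposited table holds, per the file headers, an estimated count, an FPKM and a TPM for each gene and library, made by the authors. Counts were not whole (tolerance 1e-06) for 1165 genes, all 22 Mup gene rows among them, and were rounded for testing. The 6 columns of averages were not used.

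Columns were matched to samples through the description label and groups to the treatment label. Genes averaging 1 FPKM or more were tested with edgeR 4.0.16 in R 4.3.3 (TMM scaling, quasi-likelihood F test, two-sided, no covariates, Benjamini-Hochberg adjustment, threshold 0.05). TMM factors were 1.02 to 1.03 in exercise and 0.972 to 0.977 in sedentary libraries. Each SE was the size of the log2 fold change over the root of its F value. Alternatives used DESeq2 1.42.0 and limma 3.58.1 on log2(FPKM + 1), log2(FPKM + 0.1) and log2(TPM + 1), among others. For a sum, the rows were replaced by their total before the fit. The script was tested on simulated data.

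Coordinates and start windows come from RefSeq on GRCm38.p6, where all 22 Mup gene IDs were found. Transcripts come from GENCODE M21 and were aligned with Biopython 1.88. Counts of windows and matches cover exact letters. The 8 genes, the lists and the markers were chosen with earlier results of these data known. Beside the Mup rows and the flanking genes, up to 5 genes of each list with the smallest p were named, and the 5 genes nearest in profile. Some genes that this rule names are not reported here.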

Additional observations from a re-analysis of the deposited data

How the results depend on the processing

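The log2 fold change of the summed 8 genes was −0.22. It was −0.14 without TMM, −0.14 by limma on log2(FPKM + 1), −0.14 by limma on log2(FPKM + 0.1), −0.10 by limma on log2(TPM + 1) and −0.14 as a sum of FPKM. It was −0.33 over all 22 Mup gene rows and −0.062 without Mup7. Leaving out 1 library gave −0.23 to −0.20. The sum was lower in exercise livers in all of these settings. The count of the 8 genes with a negative value was 5 in every setting run. The number of genes called was 3913, against 2512 with DESeq2 and 3419 to 3507 with 1 library left out, and the called genes of the lists numbered 104, against 88 with DESeq2, 92 to 93 with limma, 91 with a mean FPKM of at least 5 and 96 to 101 with 1 library left out. With 1 library left out Mup10 lay between −0.016 (without exercise replicate 3) and 0.11, against 0.05 with all libraries, and the cause was not tested.

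Exercise and sedentary libraries share replicate numbers in their titles. The deviations of libraries with the same number correlated at −0.026, −0.0070 and −0.014, so the numbers were not taken as pairs. With the replicate number as a block, 3846 genes were called and the summed log2 fold change was −0.22. Depth did not limit the 8 genes, whose lowest count in a library was 846. How shared reads were divided is unknown, which touches all 8 genes. For Mup3 and Mup21 all windows were unique among Mup transcripts, yet their counts were not whole in any library.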
